A study of Mus musculus with 18 samples.

Results

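Transcripts of metalloproteinases and their inhibitors were followed in cultured mouse aorta through 54 genes, which were picked by a rule on their names. The rule took every gene whose symbol in the array annotation starts with Mmp (matrix metalloproteinase), Timp (tissue inhibitor of metalloproteinases), Adam (a disintegrin and metalloproteinase) or Adamts (an Adam with thrombospondin motifs), followed directly by a digit. The rule uses no measured value. The 54 genes had 83 of the 20380 probe sets that the annotation assigns to a single gene, and 1 further probe set shared by several genes was left out. Of the 83 probe sets, 38 had a log2 value above 4 in 3 or more of the 18 samples, the limit used here for a measured probe set. These 38 probe sets belonged to 22 genes, namely 4 of 4 Timp genes, 7 of 18 Mmp genes, 5 of 25 Adam genes and 6 of 7 Adamts genes. The 22 genes are part of 7092 genes tested in all, out of 12393 with a probe set. Where several probe sets of a gene passed, as for 11 of the 22 genes, the one with the highest mean over the 18 samples stands for the gene.

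The aortas came from wild type male C57Bl/6 mice that had all received spironolactone, an antagonist of the mineralocorticoid receptor, at 20 mg/kg/day for 5 days from a pellet under the skin. The vessels were then cultured ex vivo for 2, 4 or 8 h in medium that held vehicle or aldosterone at 100 nM; aldosterone is the steroid hormone that activates the mineralocorticoid receptor. Each of the 6 groups (vehicle and aldosterone at each time) holds 3 samples, and each sample is RNA pooled from 3 aortas, called a pool here with the replicate number of its label. The vehicle groups are therefore spironolactone-treated too, and every group, vehicle at 2 h included, had been in culture. The comparison of aldosterone with vehicle asks what added aldosterone does to these transcripts in the whole vessel wall. The receptor through which it acts in these cultures was not tested. The comparison of times asks what culture does to the transcripts.

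Matrix metalloproteinases are zinc enzymes that cut collagen, elastin and other components of the extracellular matrix. Most are secreted as inactive precursors, while the membrane types stay on the cell surface and can activate others there. The Timp proteins block the active site of these enzymes, and Timp3, which binds to the matrix, also blocks several Adam and Adamts proteases. Adam proteases release the outer part of membrane proteins such as growth factors, cytokines and adhesion molecules, and Adamts proteases cut matrix proteoglycans and process matrix proteins. In arteries the balance of enzyme and inhibitor is known for its part in wall remodelling, aneurysm and the growth of smooth muscle cells.

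Time in culture moved most of the measured members, and aldosterone few. In both treatments Timp1, Mmp3, Mmp13 and Adam19 rose steeply over the 6 h window, and Mmp14 and Adam9 rose less. Timp2, Timp3, Mmp2, Mmp17, Mmp23, Adamts1, Adamts5 and Adamts8 fell between 4 and 8 h, also in both treatments. Against vehicle, aldosterone-treated aortas had less Timp3 and more Adamts15 at 8 h, by log2 differences of -0.62 ± 0.11 and 1.53 ± 0.31 (SE, n = 3 pools a group). Averaged over the 3 times, Adamts1 and Adamts15 were higher and Timp3 and Adam19 lower with aldosterone.

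The samples of the series were alike in overall signal except 1. Vehicle 2 h pool 1 had a median log2 value of 4.42 over all probe sets, against 4.01 to 4.09 in the other 17 samples, and its tested genes read higher than the mean of the other vehicle 2 h pools by a median of 0.42 (members 0.31). By the probe set that stands for each gene, only Adamts10 of the 22 members was off by more than 1 there, against 908 of the 7092 genes. The defining markers of the labelled tissue were present: 7 of 7 smooth muscle markers and 6 of 6 fibroblast markers passed the limit, and 6 of 7 endothelial markers did. Of other cell types, 8 of 8 macrophage, 3 of 6 adipocyte and 3 of 5 cardiac muscle markers passed, but only 2 of 7 neutrophil, 1 of 6 mast cell and 1 of 7 lymphocyte markers. In whole tissue, fewer cells of a type and less RNA per cell cannot be told apart. In the vehicle groups the mean log2 level of the marker lists was lower at 8 h than at 2 h for macrophages (7.12 to 8.00 in the pools at 2 h, 5.40 to 5.88 at 8 h), fibroblasts (10.27 to 10.86, then 9.04 to 9.47), endothelium (6.88 to 7.82, then 6.28 to 6.36) and smooth muscle (11.09 to 11.27, then 10.29 to 10.71). The adipocyte list was lower at 8 h too (7.25 to 8.28, then 6.06 to 6.42). Not every marker fell. The vehicle means of Cd14 and Cd68 (macrophage), Cdh5 and Cldn5 (endothelial) and Smtn (smooth muscle) were higher at 8 h than at 2 h. The other measured markers of these lists were lower. The list levels include markers under the limit, Tie1 for endothelium and Lep for adipocytes. The part of these shifts in the changes with time given below was not tested.

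The 32 member genes under the limit were Mmp1a, Mmp1b, Mmp7, Mmp8, Mmp9, Mmp10, Mmp11, Mmp12, Mmp16, Mmp20 and Mmp24, then Adam1a, Adam1b, Adam2, Adam3, Adam4, Adam5, Adam7, Adam8, Adam11, Adam12, Adam18, Adam21, Adam22, Adam23, Adam24, Adam25, Adam26a, Adam28, Adam33 and Adam34, and Adamts7. Of these, 26 were at or under log2 4 in all 18 samples. They include the gelatinase Mmp9, an enzyme of leukocytes and inflamed vessels, whose probe sets read 3.01 to 3.56 and 1.73 to 1.79, and the neutrophil collagenase Mmp8 (2.23 to 2.63). Several others are known from the testis or sperm, such as Adam2, Adam3 and Adam18. These genes were not tested, and no fold is given for them. The 8 h values of Adam8, Mmp12 and Mmp10 are given at the end.

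Culture changed 12 of the 22 members in the vehicle groups between 2 and 4 h, and 18 between 4 and 8 h (limma, adjusted p under 0.05 over all genes). From 2 to 4 h, 3 members rose, where 14.6% of all genes tested rose, and 9 fell, where 25.6% fell. Between 4 and 8 h, 7 members rose and 11 fell, beside 20.7% and 17% of all genes. The median log2 difference of the 22 members was -0.36 and then -0.35, against -0.13 and 0.03 for all genes. In the aldosterone groups 4 members rose and 10 fell from 2 to 4 h (17.3% and 21.3% of all genes), and 8 rose and 8 fell from 4 to 8 h (21% and 16.6% of all genes), with member medians of -0.30 and -0.12 against -0.04 and 0.05. The number of rises thus lay near the background from 2 to 4 h, and the number of falls lay above it in each comparison. Successive comparisons share the 4 h pools.

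The direction of change was the same in both treatments for every member called in both. From 2 to 4 h these were 10 members, of 12 called in vehicle and 14 in aldosterone-treated aortas. From 4 to 8 h they were 15, of 18 and 16. The split of the vehicle 4 h against 2 h calls depends on scaling. After centring each array on its median, the median difference of all genes moved from -0.13 to 0.02, the share of all genes called was 21.3% higher and 21% lower, and the members split into 5 higher and 7 lower, with Adam9 and Mmp19 added to the rises and Adamts4 and Mmp23 lost from the falls.

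**Figure D1:**
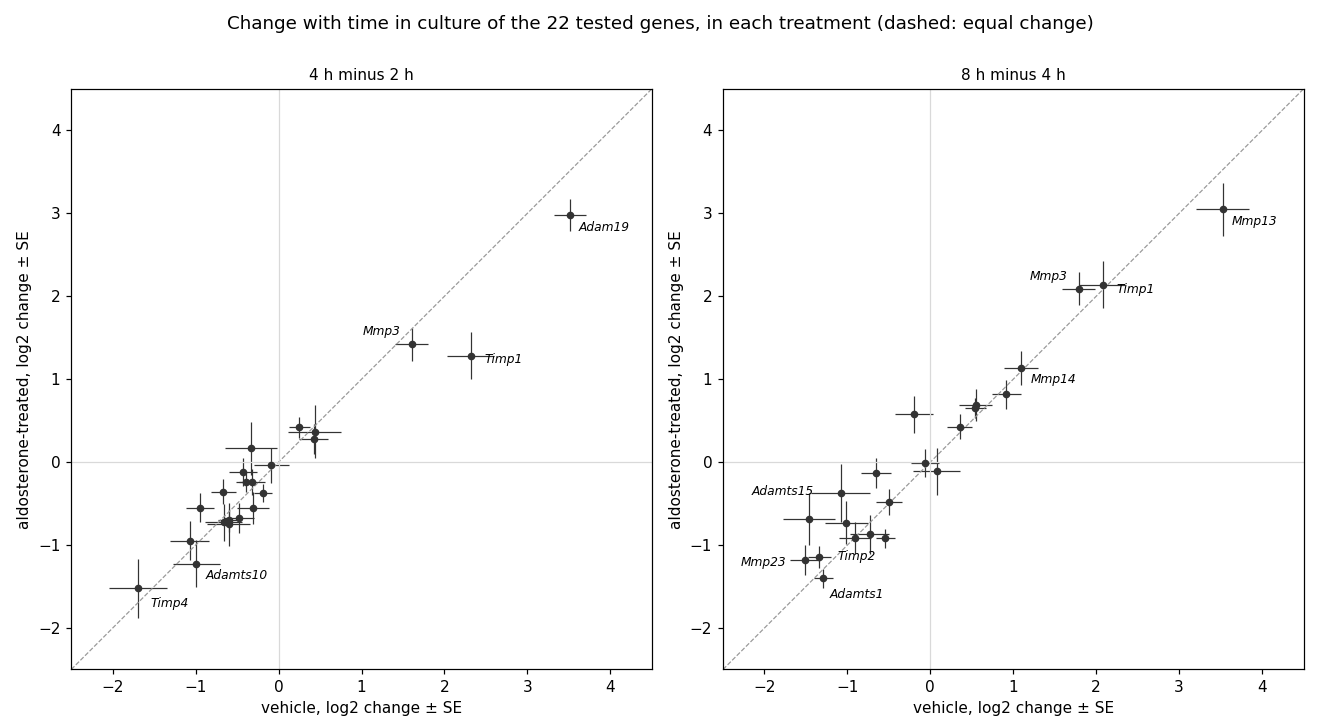
Each point is 1 of the 22 tested genes, with its log2 change in vehicle on the horizontal axis and in aldosterone-treated aortas on the vertical axis, for 4 h minus 2 h on the left and 8 h minus 4 h on the right (bars: SE; dashed line: equal change). Adam19 lies far out on the left (3.51 and 2.98) and Mmp13 on the right (3.53 and 3.05), and most members lie near the line of equal change.

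Promoter sequence is shown for the 4 members with the largest difference between 8 h and 2 h in vehicle (Timp1, Adam19, Mmp13 and Mmp3) and for the members that differed with aldosterone and have an entry (Timp3 and Adamts1; Adam19 is also one of these). The sequences are from the set of RefSeq promoter entries on GRCm38.p6 used here, which covers 13 of the 22 measured genes (16 entries). The limit is that of this set, as all 54 member genes are in RefSeq. The 9 genes with no entry used here are Mmp2, Mmp17, Mmp19, Adam9, Adamts4, Adamts5, Adamts8, Adamts10 and Adamts15. Each sequence gives the 150 bases before the annotated start, 5′ to 3′ on the gene's strand, with matches on either strand to the AP-1 element TGANTCA (the site of Jun and Fos proteins), the TATA box TATAAA and the GC box GGGCGG in capitals. None of these matches overlap. Of the 3 entries of Adam19, the one with the most matches to the AP-1 element was chosen for display.
Mmp3, chr9:7445672-7445821, plus strand: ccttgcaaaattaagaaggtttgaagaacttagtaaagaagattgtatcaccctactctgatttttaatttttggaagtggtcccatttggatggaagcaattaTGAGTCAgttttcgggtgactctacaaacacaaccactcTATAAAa
Mmp13, chr9:7272364-7272513, plus strand: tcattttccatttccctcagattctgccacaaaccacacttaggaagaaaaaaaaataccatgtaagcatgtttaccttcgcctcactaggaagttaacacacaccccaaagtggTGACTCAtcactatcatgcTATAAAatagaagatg
Adam19, chr11:46055834-46055983, plus strand: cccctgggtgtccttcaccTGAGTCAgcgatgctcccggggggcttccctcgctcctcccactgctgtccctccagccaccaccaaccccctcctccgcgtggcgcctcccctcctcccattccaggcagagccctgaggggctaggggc
Timp1, chrX:20870016-20870165, plus strand: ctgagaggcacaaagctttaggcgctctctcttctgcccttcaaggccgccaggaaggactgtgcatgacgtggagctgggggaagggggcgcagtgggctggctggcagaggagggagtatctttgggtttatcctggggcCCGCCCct
Timp3, chr10:86300262-86300411, plus strand: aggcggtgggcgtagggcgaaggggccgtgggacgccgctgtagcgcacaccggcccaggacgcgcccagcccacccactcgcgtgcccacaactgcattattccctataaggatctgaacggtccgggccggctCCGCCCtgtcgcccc
Adamts1, chr16:85803114-85803263, minus strand: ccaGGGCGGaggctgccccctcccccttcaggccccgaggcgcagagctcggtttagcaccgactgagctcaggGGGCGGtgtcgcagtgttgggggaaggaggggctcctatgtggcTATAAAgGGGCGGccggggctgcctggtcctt

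Within 250 bases before the start, the AP-1 element was found in 3 of the 16 entries, those of Mmp3, Mmp13 and Adam19 (in 1 of the 3 entries of Adam19), against 6.75% of 32851 promoters. In Mmp3 and Mmp13, both in the Mmp gene cluster of chromosome 9, the element begins 46 and 35 bases before the start and is followed by a TATA box. In the Adam19 entry shown, which was chosen for its match, it begins 131 bases before the start. The TATA box was in 3 entries (Mmp3, Mmp13 and Adamts1; 12.4% of all promoters) and the GC box in 8, among them Timp1, Timp3 and Adamts1 (32.7% of all promoters). The cAMP response element TGACGTCA (1.55% of all promoters) and a loose form of the steroid receptor element, GNACA and TGTNC with any 3 bases between them (0.387%), were in none of the 16 windows. These are matches of letters, not measured binding.

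Timp1, a secreted inhibitor induced in injured and inflamed tissue, rose at both steps. The log2 values in vehicle were 5.29, 5.63 and 5.52 at 2 h, 7.69, 7.60 and 8.11 at 4 h, and 10.37, 9.83 and 9.43 at 8 h. With aldosterone they were 5.89, 5.97 and 6.24, then 8.11, 7.17 and 6.67, then 9.32, 9.56 and 9.47. In each treatment all pools of a later time were above all pools of an earlier one. The steps in vehicle were 2.32 ± 0.28 (4.99-fold, adjusted p = 9.42e-06) and 2.08 ± 0.28 (4.23-fold, adjusted p = 2.35e-05). In aldosterone-treated aortas they were 1.28 (2.43-fold, adjusted p = 0.00197) and 2.14 (4.40-fold, adjusted p = 1.82e-05). From 2 to 8 h the difference came to 21.1-fold in vehicle and 10.7-fold with aldosterone, and whether these folds differ is covered by the test of aldosterone effects between times given with the aldosterone results.

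Timp2, the inhibitor that also takes part in the activation of Mmp2 on the cell surface, went the other way. Vehicle pools read 11.95, 11.88 and 11.70 at 2 h, 11.23, 11.21 and 11.29 at 4 h, and 10.16, 10 and 9.56 at 8 h. Aldosterone pools read 11.76, 11.87 and 11.98, then 11.31, 11.24 and 10.95, then 10.06, 10.07 and 9.93. No pool of a later time reached the lowest pool of an earlier time of its treatment. The log2 change in vehicle was -0.60 ± 0.14 (adjusted p = 0.00223) and then -1.34 (adjusted p = 1.17e-06, 2.53-fold lower), and with aldosterone -0.70 (adjusted p = 0.000707) and -1.15 (adjusted p = 6.04e-06, 2.21-fold lower). The 4 other Timp2 probe sets fell in both 8 h against 4 h comparisons as well, by between 0.82 and 1.39 on the log2 scale.

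Timp3 fell later and by less. Its vehicle values were 11.78, 11.66 and 11.44 at 2 h, 11.57, 11.36 and 11.40 at 4 h, and 11.00, 10.91 and 10.79 at 8 h. The aldosterone pools gave 11.50, 11.63 and 11.60, then 11.12, 11.29 and 11.20, then 10.27, 10.45 and 10.12. The 8 h pools were the lowest of each treatment, and the vehicle pools of 2 and 4 h overlapped. Vehicle 4 h against 2 h gave -0.18 ± 0.11 (adjusted p = 0.198, not called), while 8 h against 4 h gave -0.54 (adjusted p = 0.000955). In aldosterone-treated aortas the changes were -0.38 (adjusted p = 0.0128) and -0.92 (adjusted p = 7e-06). The first of these calls ended without aldosterone 4 h pool 1 (adjusted p = 0.05) and with the mean of all Timp3 probe sets as the value (adjusted p = 0.123).

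Timp4, an inhibitor with a narrower range of tissues that includes heart and vessels, fell most of all between 2 and 4 h. The vehicle values were 6.53, 6.52 and 6.70 at 2 h, 4.30, 4.61 and 5.76 at 4 h, and 3.69, 3.63 and 4.10 at 8 h. With aldosterone they were 6.29, 6.48 and 5.85, then 5.38, 4.56 and 4.12, then 4.23, 4.83 and 3.87. The 4 h pools were spread widely in both treatments, and the aldosterone pools of 4 and 8 h overlapped. The change from 2 to 4 h was -1.69 ± 0.35 (adjusted p = 0.00115) in vehicle and -1.52 (adjusted p = 0.00268) with aldosterone. From 4 to 8 h it was -1.08 (adjusted p = 0.0218) in vehicle and -0.38 (adjusted p = 0.429, not called) with aldosterone. The vehicle 8 h call was lost without vehicle 4 h pool 3 (-0.65, adjusted p = 0.14), without vehicle 8 h pool 1 (adjusted p = 0.0658) or pool 2 (adjusted p = 0.0716), and with no filter (adjusted p = 0.0515).

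**Figure D2:**
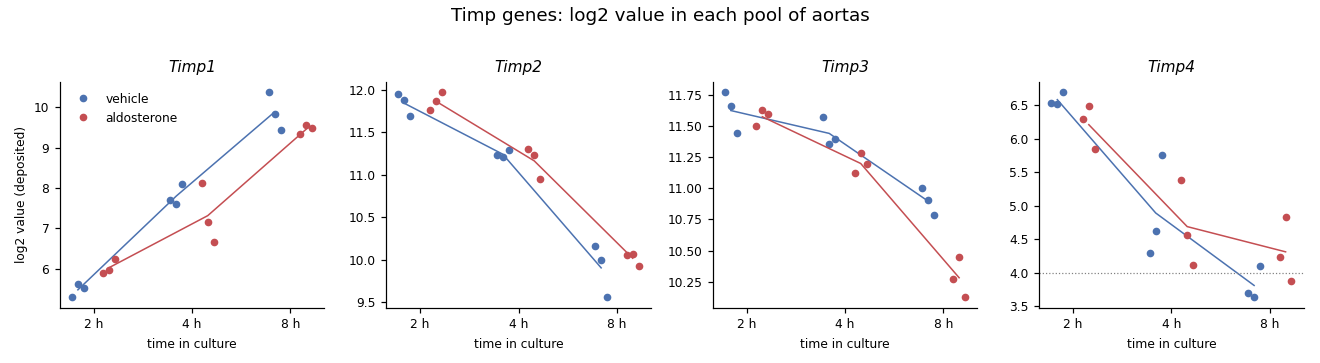
Deposited log2 value of the Timp genes in each pool by time in culture (blue: vehicle; red: aldosterone; lines join group means; dotted line: log2 4, the limit for a measured probe set). Timp1 lies between 5.29 and 6.24 at 2 h and between 9.32 and 10.37 at 8 h, the other inhibitors decline, and the 8 h aldosterone pools of Timp3 all lie under the vehicle pools.

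Among the secreted enzymes, Mmp3 (stromelysin 1), which cuts many matrix proteins and activates other metalloproteinases, rose at every step. The vehicle values were 9.09, 9.08 and 8.77 at 2 h, 10.73, 10.19 and 10.84 at 4 h, and 12.59, 12.19 and 12.36 at 8 h. With aldosterone they were 8.89, 9.56 and 9.01, then 10.94, 10.53 and 10.25, then 12.63, 12.71 and 12.66. The times did not overlap in either treatment. The log2 change was 1.61 ± 0.20 (3.05-fold, adjusted p = 1.16e-05) and 1.79 (3.46-fold, adjusted p = 3.31e-06) in vehicle. It was 1.42 (2.68-fold, adjusted p = 4.15e-05) and 2.09 (4.26-fold, adjusted p = 7.38e-07) in aldosterone-treated aortas.

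Mmp13, the main interstitial collagenase of the mouse, stayed near the limit until 4 h and rose after it. Vehicle pools read 3.94, 3.77 and 3.43 at 2 h, 4.13, 4.30 and 4.02 at 4 h, and 8.04, 7.33 and 7.65 at 8 h. Aldosterone pools read 3.45, 3.72 and 3.67, then 5.03, 3.55 and 3.36, then 7.23, 6.72 and 7.14. All 8 h pools were thus far above all earlier pools. From 4 to 8 h the rise was 3.53 ± 0.32 (11.5-fold, adjusted p = 3.62e-07) in vehicle and 3.05 (adjusted p = 1.66e-06) with aldosterone. The mean of the aldosterone 4 h pools was 3.98, so that rise is given as at least 8.17-fold, against log2 4. The change from 2 to 4 h was 0.43 (adjusted p = 0.295) in vehicle and 0.37 (adjusted p = 0.399) with aldosterone, neither of them called.

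Mmp2 (gelatinase A), the gelatinase that vessel wall cells make without stimulation, fell. Vehicle pools read 7.55, 6.90 and 6.61 at 2 h, 6.26, 6.29 and 6.70 at 4 h, and 5.97, 5.34 and 4.90 at 8 h. The aldosterone pools gave 7.08, 7.28 and 7.34, then 6.71, 6.49 and 6.24, then 5.50, 5.80 and 5.95. The 8 h pools were the lowest in each treatment, and vehicle pools of 2 and 4 h overlapped. Mmp2 then fell from 4 to 8 h by 1.01 ± 0.26 on the log2 scale in vehicle (adjusted p = 0.00537) and by 0.73 with aldosterone (adjusted p = 0.0349). From 2 to 4 h the change was -0.60 in vehicle (adjusted p = 0.0751, not called) and -0.75 with aldosterone (adjusted p = 0.0299). The vehicle change was -0.34 without vehicle 2 h pool 1 (adjusted p = 0.31), and it was called without vehicle 2 h pool 3 (-0.80, adjusted p = 0.0291) or vehicle 8 h pool 1 (adjusted p = 0.0459). Both calls with aldosterone ended with no filter (adjusted p = 0.0609 and 0.0702). The first also ended with the mean of its probe sets (adjusted p = 0.0602) and without aldosterone 2 h pool 2 or 3 or 4 h pool 2 or 3 (adjusted p = 0.0649 to 0.116), and the second without aldosterone 4 h pool 1 or 2 or 8 h pool 1 or 2 (adjusted p = 0.0667 to 0.127). A second Mmp2 probe set of similar brightness had vehicle means of 6.24 at 2 h and 6.62 at 4 h, a change in the other direction. Its vehicle 2 h pool 1 read 4.89, and without that pool its vehicle 2 h mean was 6.91. With aldosterone its means were 7.26 at 2 h and 6.63 at 4 h.

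Mmp19 was above log2 4 in only 3 samples, vehicle 4 h pool 1 (4.10), aldosterone 4 h pool 3 (4.16) and aldosterone 8 h pool 1 (4.12), so no fold is given for it. Its other values lay between 3.25 and 3.95. It was called lower at 8 h than at 4 h in vehicle, by -0.65 ± 0.18 (adjusted p = 0.00821). Mmp23, a small membrane-anchored enzyme that lacks the usual inhibitory switch of the family, fell at both steps. Its vehicle values were 7.65, 7.30 and 7.42, then 7.00, 6.74 and 7.20, then 5.59, 5.64 and 5.18, and its aldosterone values were 7.42, 7.63 and 7.41, then 6.83, 6.98 and 6.63, then 5.78, 5.80 and 5.32. In each treatment the times stand in separate ranges. The changes in vehicle were -0.48 ± 0.18 (adjusted p = 0.0431) and -1.51 (adjusted p = 6.68e-06), and with aldosterone -0.68 (adjusted p = 0.00726) and -1.18 (adjusted p = 7.83e-05). The first of these calls was lost when any 1 of 7 samples was left out (vehicle 2 h pools 1 and 3, vehicle 4 h pools 1 and 2, aldosterone 2 h pools 1 and 3, and aldosterone 4 h pool 1), with adjusted p between 0.0516 and 0.172. It was also lost with no filter, quantile normalization, centring and a fit of those groups alone (adjusted p = 0.0531 to 0.134).

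Of the other membrane types, Mmp14 (MT1-MMP), the cell surface collagenase that activates Mmp2, rose late. Its vehicle values were 7.16, 6.38 and 6.21 at 2 h, 6.57, 6.51 and 6.41 at 4 h, and 7.93, 7.66 and 7.18 at 8 h. With aldosterone they were 6.69, 6.50 and 6.69, then 6.61, 6.52 and 6.64, then 7.71, 7.82 and 7.65. The 8 h pools were the highest in each treatment. The rise from 4 to 8 h was 1.09 ± 0.21 (2.13-fold, adjusted p = 0.000582) in vehicle and 1.13 (2.20-fold, adjusted p = 0.000427) with aldosterone, after changes of -0.09 and -0.04 from 2 to 4 h (adjusted p = 0.765 and 0.915). Mmp17 (MT4-MMP), which is held on the membrane by a lipid anchor, fell late. Its vehicle values were 7.53, 6.96 and 6.93, then 6.76, 6.99 and 6.75, then 6.08, 5.96 and 5.73, and with aldosterone 7.27, 7.66 and 7.08, then 6.55, 7.02 and 6.78, then 5.80, 5.99 and 5.82. The 8 h pools were below all others. From 4 to 8 h it fell by 0.91 ± 0.19 on the log2 scale in both treatments (adjusted p = 0.00123 and 0.00124). From 2 to 4 h the change was -0.31 (adjusted p = 0.216) in vehicle and -0.55 (adjusted p = 0.0296) with aldosterone, a call that ended without aldosterone 2 h pool 1 or 2 or 4 h pool 1 or 3 (adjusted p = 0.0522 to 0.157).

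**Figure D3:**
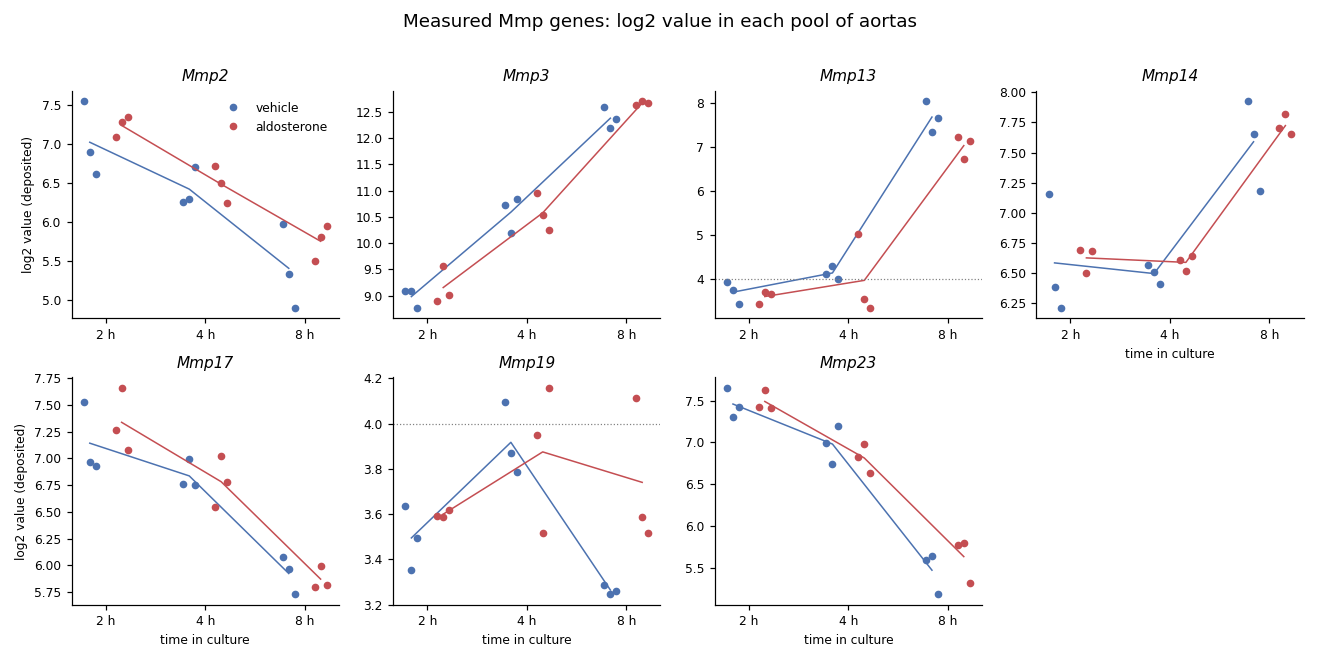
Deposited log2 value of the 7 measured Mmp genes in each pool by time in culture (blue: vehicle; red: aldosterone; lines join group means; dotted line: log2 4). Mmp3 and Mmp13 climb to 12.19 to 12.71 and 6.72 to 8.04 at 8 h, Mmp14 climbs late, and Mmp2, Mmp17 and Mmp23 decline.

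Adam19 (meltrin beta), a membrane protease that can release neuregulins, showed the largest early rise of the members. Its vehicle values were 4.82, 4.39 and 4.68 at 2 h, 8.26, 7.98 and 8.18 at 4 h, and 8.40, 8.83 and 8.82 at 8 h. With aldosterone they were 4.60, 4.61 and 4.10, then 7.49, 7.06 and 7.68, then 7.95, 8.24 and 8.13. All pools at 4 h were far above all pools at 2 h. The rise from 2 to 4 h was 3.51 ± 0.19 (11.4-fold, adjusted p = 1.06e-09) in vehicle and 2.98 (7.87-fold, adjusted p = 6.89e-09) with aldosterone. The later step was 0.54 (1.46-fold, adjusted p = 0.0343) and 0.69 (1.62-fold, adjusted p = 0.00923). The vehicle call of the later step ended without vehicle 4 h pool 2 or 3 or 8 h pool 2 or 3 (adjusted p = 0.0623 to 0.122), with no filter, with quantile normalization and with centring, and that with aldosterone ended without aldosterone 4 h pool 2 (adjusted p = 0.061). A second, dimmer Adam19 probe set rose at each of the 4 steps too, by 0.64 to 1.15 on the log2 scale. All its 2 h pools and all its aldosterone 4 h pools were under log2 4 (2.89 to 3.72). Its step from 2 to 4 h with aldosterone thus lies wholly under the limit.

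The sheddases Adam10 and Adam17, which cut Notch receptors and release tumour necrosis factor and growth factors of the EGF family, had their lowest values at 4 h. Adam17 read 8.48, 7.78 and 7.76 in vehicle at 2 h, 6.97, 7.26 and 6.95 at 4 h, and 8.11, 7.98 and 7.83 at 8 h. With aldosterone it read 7.61, 7.75 and 7.76, then 6.99, 7.20 and 7.26, then 8.11, 8.01 and 7.80. The 4 h pools were the lowest of each treatment, with no overlap. Adam17 fell by 0.95 ± 0.17 on the log2 scale (adjusted p = 0.000441) and rose by 0.92 (adjusted p = 0.00053) in vehicle, and with aldosterone it fell by 0.55 (adjusted p = 0.0189) and rose by 0.82 (adjusted p = 0.00134). The fall with aldosterone was not called without aldosterone 2 h pool 2 or 3 or 4 h pool 1 (adjusted p = 0.0564 to 0.0758). The second Adam17 probe set did not show the dip in vehicle (-0.02 and 0.03, adjusted p = 0.937 and 0.904).

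Adam10 values were 9.40, 8.99 and 9.09 in vehicle at 2 h, 8.45, 8.62 and 8.40 at 4 h, and 8.85, 8.94 and 8.75 at 8 h. With aldosterone they were 9.09, 8.84 and 8.91, then 8.62, 8.48 and 8.66, then 9.38, 8.89 and 8.78. The 4 h pools were again below the others. Adam10 fell by 0.67 ± 0.15 on the log2 scale from 2 to 4 h in vehicle (adjusted p = 0.00214) and rose by 0.43 from 4 to 8 h with aldosterone (adjusted p = 0.0327). The other steps were 0.36 in vehicle (adjusted p = 0.0721) and -0.36 with aldosterone (adjusted p = 0.0713), neither called. Both were called without vehicle 2 h pool 1 (adjusted p = 0.0339 and 0.0334) and without aldosterone 8 h pool 1 (adjusted p = 0.0372 and 0.0371). The rise with aldosterone ended without aldosterone 8 h pool 1 (0.25, adjusted p = 0.204), without aldosterone 4 h pool 1 or 2 (adjusted p = 0.0634 and 0.109), with the mean of its probe sets (adjusted p = 0.209), with those groups alone (adjusted p = 0.0554) and with no filter (adjusted p = 0.0548).

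Adam9 (meltrin gamma), a widely expressed member that sheds several growth factors and receptors, rose between 4 and 8 h. It read 11.08, 10.55 and 10.58 in vehicle at 2 h, 11.05, 10.90 and 11.00 at 4 h, and 11.43, 11.52 and 11.64 at 8 h, and with aldosterone 10.61, 10.66 and 10.46, then 11.05, 10.88 and 11.05, then 11.71, 11.68 and 11.56. The 8 h pools were the highest. The rise from 4 to 8 h was 0.54 ± 0.12 (adjusted p = 0.0024) in vehicle and 0.65 (adjusted p = 0.000524) with aldosterone. From 2 to 4 h it was 0.25 (adjusted p = 0.12, not called) and 0.42 (adjusted p = 0.0132), the latter lost without aldosterone 2 h pool 3 (adjusted p = 0.0595). Without vehicle 2 h pool 1 the vehicle change was 0.42 and was called (adjusted p = 0.00157). Adam15, a member found on endothelium and smooth muscle, passed no culture test in the fit of all samples. Its values ran from 5.97 to 6.98 over the 18 samples, and its largest step was -0.43 ± 0.17 in vehicle from 2 to 4 h (adjusted p = 0.0506). That step was -0.24 without vehicle 2 h pool 1 (adjusted p = 0.218) and was called without vehicle 2 h pool 3 (-0.61, adjusted p = 0.0076), with the mean of its probe sets (adjusted p = 0.0237) and with a prior variance without trend (adjusted p = 0.0383).

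By the probe set that stands for each gene, no Adamts gene was called higher at a later time, although Adamts4 was near the threshold. Adamts1, which cuts versican and other proteoglycans, read 12.70, 12.33 and 12.29 in vehicle at 2 h, 12.07, 12.09 and 11.98 at 4 h, and 10.84, 10.79 and 10.63 at 8 h. With aldosterone it read 12.88, 12.54 and 12.71, then 12.47, 12.58 and 12.35, then 11.11, 11.04 and 11.05. The 8 h pools were far below the rest in each treatment. From 4 to 8 h it fell by 1.29 on the log2 scale in vehicle (adjusted p = 3.27e-07) and by 1.40 with aldosterone (adjusted p = 1.24e-07). From 2 to 4 h the change was -0.39 in vehicle (adjusted p = 0.0124, and 0.0909 when those groups alone were fitted) and -0.24 with aldosterone (adjusted p = 0.107, not called, but called without vehicle 2 h pool 1, adjusted p = 0.0325).

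By the probe set that stands for each gene, Adamts5 and Adamts4, the aggrecanases, differed in when they fell. Adamts5 read 8.98, 8.40 and 8.40 in vehicle at 2 h, 7.18, 7.64 and 7.75 at 4 h, and 7.27, 6.86 and 6.26 at 8 h, and with aldosterone 8.47, 8.85 and 8.39, then 7.71, 7.63 and 7.54, then 6.75, 6.99 and 6.52. It was highest at 2 h in both treatments, and only the vehicle pools of 4 and 8 h overlapped. Its changes in vehicle were -1.07 ± 0.23 (adjusted p = 0.00175) and -0.73 (adjusted p = 0.0212), and with aldosterone -0.95 (adjusted p = 0.00442) and -0.87 (adjusted p = 0.00747). The later fall in vehicle ended without vehicle 4 h pool 2 or 3 (adjusted p = 0.0702 and 0.0843), without vehicle 8 h pool 3 (-0.46, adjusted p = 0.13) and with those groups alone (adjusted p = 0.062). A second, dimmer Adamts5 probe set changed little from 2 to 4 h in vehicle, with means of 4.60 and 4.51, and 3.73 at 8 h. With aldosterone its means were 4.78, 4.42 and 3.57. All its 8 h pools were under log2 4.

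Adamts4 read 8.38, 8.91 and 8.15 in vehicle at 2 h, 7.79, 7.64 and 8.04 at 4 h, and 7.80, 7.70 and 7.36 at 8 h. With aldosterone it read 8.11, 8.17 and 8.39, then 7.79, 7.78 and 6.92, then 8.08, 8.19 and 7.96. The 2 h pools lay above the 4 h pools in both treatments. It fell from 2 to 4 h by 0.66 ± 0.22 on the log2 scale in vehicle (adjusted p = 0.0266) and by 0.72 with aldosterone (adjusted p = 0.017). Over the later step the change was -0.20 (adjusted p = 0.528) and 0.58 (adjusted p = 0.0512), neither called. The latter was called in 9 of 28 alternatives (adjusted p = 0.0052 to 0.048), among them those that left out any vehicle 2 h pool (adjusted p = 0.0328 to 0.0425) or aldosterone 4 h pool 1 or 2 (adjusted p = 0.0336 and 0.0358). The vehicle fall ended without vehicle 2 h pool 2 (-0.44, adjusted p = 0.129) or vehicle 4 h pool 1 or 2 (adjusted p = 0.0687 and 0.0958), with no filter, with centring and with those groups alone (adjusted p = 0.0543 to 0.0951), and the fall with aldosterone ended without aldosterone 2 h pool 3 (adjusted p = 0.0664) or 4 h pool 3 (adjusted p = 0.117). A second Adamts4 probe set gave -0.08 in vehicle and 0.16 with aldosterone over that step and rose from 4 to 8 h with aldosterone (0.92, adjusted p = 0.00151). With the mean of the probe sets both falls were lost (adjusted p = 0.134 and 0.265).

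Adamts8, Adamts10 and Adamts15 are less studied members of the family. Over both treatments Adamts8 values lay between 5.37 and 5.77 at 2 h and between 4.69 and 5.10 at 8 h. Its fall was called from 4 to 8 h, by 0.50 ± 0.16 on the log2 scale in vehicle (adjusted p = 0.017) and 0.48 with aldosterone (adjusted p = 0.0211). The vehicle call ended without vehicle 4 h pool 1 or 2 or 8 h pool 1 or 2 (adjusted p = 0.0508 to 0.0775), and the other without aldosterone 4 h pool 2 or 3 or 8 h pool 2 (adjusted p = 0.0626 to 0.0871). Adamts10 read 6.24, 5.23 and 5.17 in vehicle at 2 h and 4.54, 4.03 and 5.08 at 4 h, and with aldosterone 5.99, 5.95 and 5.33, then 4.64, 4.44 and 4.52. The 2 h pools were above the 4 h pools, and the highest vehicle pool was the one with the raised median signal. It fell by 0.99 ± 0.28 in vehicle (adjusted p = 0.0103) and 1.22 with aldosterone (adjusted p = 0.00285) on the log2 scale. The vehicle call was lost without vehicle 2 h pool 1 (-0.65, adjusted p = 0.0545), without vehicle 4 h pool 2 (-0.73, adjusted p = 0.0642) and with those groups alone (adjusted p = 0.102). At 8 h its values were 4.13 to 4.77, and neither change from 4 h passed the test (0.08 and -0.11, adjusted p = 0.857 and 0.791).

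**Figure D4:**
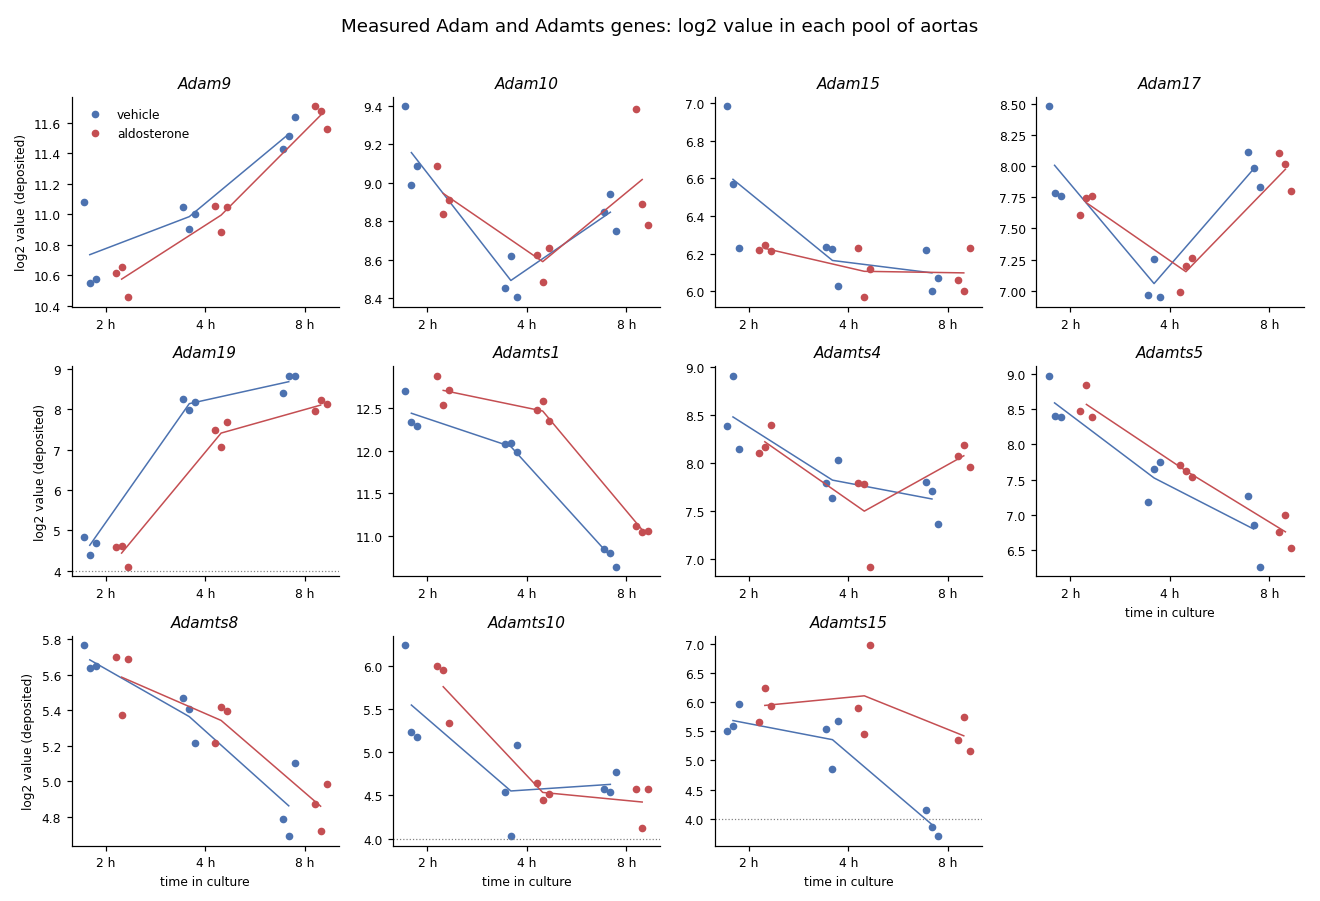
Deposited log2 value of the 11 measured Adam and Adamts genes in each pool by time in culture (blue: vehicle; red: aldosterone; lines join group means; dotted line: log2 4). Adam19 jumps between 2 h (4.10 to 4.82) and 4 h (7.06 to 8.26), with the aldosterone pools below the vehicle pools at 4 and 8 h, Adam10 and Adam17 are lowest at 4 h, and the group means of the Adamts genes are lower at 8 h than at 2 h.

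Other genes of metalloproteinase biology were counted in lists chosen with earlier results of these data known. Of 22 listed activators, inhibitors and receptors outside the family names, 14 were measured, and in vehicle 4 rose and 2 fell from 2 to 4 h (14.6% and 25.6% of all genes), and 3 rose and 2 fell from 4 to 8 h (20.7% and 17% of all genes). Reck, a membrane-anchored inhibitor of several Mmp enzymes, fell at both steps, by 0.999 ± 0.17 and 1.52 ± 0.17 on the log2 scale (adjusted p = 0.000241 and 3.46e-06), from a vehicle mean of 10.92 at 2 h to 8.41 at 8 h. Plaur, the urokinase receptor, rose at both steps (1.29 and 0.83, adjusted p = 0.00191 and 0.0297), as did the plasminogen activator inhibitor Serpinb2 (2.26 and 2.64, adjusted p = 0.00889 and 0.0032), the former from a mean at log2 4. Bsg (basigin, known as an inducer of Mmp expression) rose from 4 to 8 h (1.34, adjusted p = 7.39e-05). With aldosterone the counts in this list were 4 up and 2 down, then 2 up and 1 down, beside 17.3% and 21.3%, then 21% and 16.6% of all genes.

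The substrates moved in both directions. Of 18 measured matrix substrates, 1 rose and 3 fell from 2 to 4 h in vehicle, and 3 rose and 7 fell from 4 to 8 h. Read against the same shares of all genes (14.6% and 25.6%, then 20.7% and 17%), the falls of the later step are above the background and the other counts are not. Elastin (Eln) fell by 1.53 ± 0.27 and the collagen chain Col1a1 by 0.97 ± 0.13 on the log2 scale from 4 to 8 h (adjusted p = 0.000285 and 2.64e-05), while fibronectin (Fn1; 0.71, adjusted p = 0.000676) and tenascin C (Tnc; 1.65, adjusted p = 3.78e-07) rose. Of 18 measured substrates of Adam shedding, 3 rose and 2 fell at the first step and 3 rose and 5 fell at the second, against the same shares. The growth factor Hbegf rose from 2 to 4 h (1.04 ± 0.13, adjusted p = 8.71e-06) and the chemokine Cx3cl1 from 4 to 8 h (2.49 ± 0.24, adjusted p = 6.24e-07), from a mean of 3.60 that is under log2 4. The adhesion molecule Vcam1 rose from 4 to 8 h (0.91, adjusted p = 0.00102), and Icam1 fell (-1.95, adjusted p = 5.51e-07). Of 5 measured relatives outside the rule, the membrane peptidase Mme (neprilysin) fell at both steps in vehicle (-0.89 and -1.13, adjusted p = 0.00201 and 0.000282). The medians of these 4 lists in vehicle lay between -0.21 and 0.10 at the first step and between -0.37 and 0.01 at the second, beside -0.13 and 0.03 for all genes.

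Aldosterone against vehicle was called for few members. At 2 h 0 of the 22 passed the limma test (2 at an unadjusted p under 0.05, which 11% of all genes had), where 0.0423% of all genes were called higher and 0.0282% lower. At 4 h 0 passed (4 at an unadjusted p under 0.05, which 3.76% of all genes had), beside 0.226% and 0.0141% of all genes. At 8 h 1 member was higher and 1 lower, beside 0.86% and 0.141%, and on the average of the 3 times 2 were higher and 2 lower, beside 0.86% and 0.24%. The member medians were 0.00, -0.03, 0.12 and 0.00, against -0.07, 0.01, 0.01 and -0.01 over all genes. The average uses the pools of the single times, so its calls are not separate evidence from them.

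Timp3 was the member called lower at 8 h. The vehicle pools there read 11.00, 10.91 and 10.79 and the aldosterone pools 10.27, 10.45 and 10.12, so the groups did not overlap. The log2 difference was -0.62 ± 0.11, or 0.651 of the vehicle level (adjusted p = 0.00687). At 4 h the aldosterone pools were also all below the vehicle pools, with a difference of -0.24 (adjusted p = 1, not called). Averaged over the times the difference was -0.30 ± 0.06 (adjusted p = 0.023). The other 3 Timp3 probe sets gave -0.92 (adjusted p = 0.0163), -0.60 (adjusted p = 0.0801) and -0.47 (adjusted p = 0.121) at 8 h. The 8 h call was kept in all 28 alternatives, while the average was not called without aldosterone 2 h pool 1, vehicle 4 h pool 1, aldosterone 4 h pool 1 or aldosterone 8 h pool 3 (adjusted p = 0.056 to 0.0642), nor with a prior variance without trend (adjusted p = 0.0619).

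Adamts15, a proteoglycan-cutting member, was the one called higher at 8 h. It read 5.50, 5.59 and 5.97 in vehicle at 2 h, 5.55, 4.85 and 5.67 at 4 h, and 4.15, 3.85 and 3.70 at 8 h. With aldosterone it read 5.67, 6.24 and 5.93, then 5.90, 5.45 and 6.98, then 5.35, 5.75 and 5.16. The groups overlapped at 2 and 4 h, and at 8 h every aldosterone pool was above every vehicle pool. In vehicle it fell by 1.46 ± 0.31 on the log2 scale from 4 to 8 h (adjusted p = 0.00154), and with aldosterone the change was -0.69 (adjusted p = 0.0961, not called, but -1.02 and called without aldosterone 4 h pool 2, adjusted p = 0.0212).

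The Adamts15 difference at 8 h was 1.53 ± 0.31 (adjusted p = 0.0193). The vehicle mean was 3.90, with 2 of the 3 pools under log2 4, so aldosterone-treated aortas were at least 2.68-fold higher, taken against log2 4. Over the 3 times it averaged 0.85 ± 0.18 (adjusted p = 0.0278). The 8 h call ended without vehicle 8 h pool 2 or 3 or aldosterone 8 h pool 1 or 2 (adjusted p = 0.0702 to 0.146) and with no filter (adjusted p = 0.0633). The average ended without any of 7 samples (vehicle 2 h pool 2, aldosterone 2 h pools 2 and 3, vehicle 4 h pool 2, vehicle 8 h pools 2 and 3 and aldosterone 8 h pool 2), with adjusted p of 0.0558 to 0.0716, and with no filter (adjusted p = 0.0714).

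Adamts1 was higher with aldosterone on the average of the times, by 0.33 ± 0.07 (1.26-fold, adjusted p = 0.0158), a call kept in all 27 alternatives. Its difference was 0.27 at 2 h, 0.42 at 4 h and 0.31 at 8 h. At 4 h the aldosterone pools (12.47, 12.58 and 12.35) and at 8 h (11.11, 11.04 and 11.05) lay above all vehicle pools of that time (12.07, 12.09 and 11.98, then 10.84, 10.79 and 10.63). No single time passed the test (adjusted p = 0.385, 0.354 and 0.482). The 4 h difference was called with vehicle 2 h pool 1 left out (0.42, adjusted p = 0.0495) and, like that at 2 h, with array weights (adjusted p = 0.0404 and 0.045).

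Adam19 was lower with aldosterone on the average of the times. At 4 h the aldosterone pools read 7.49, 7.06 and 7.68 against 8.26, 7.98 and 8.18, and at 8 h 7.95, 8.24 and 8.13 against 8.40, 8.83 and 8.82, with no overlap at either time. The differences were -0.73 and -0.58 (adjusted p = 0.314 and 0.353, neither called), and the average over the times was -0.50 ± 0.11 (0.706 of the vehicle level, adjusted p = 0.0336). At 2 h the difference was -0.19 (adjusted p = 0.733, not called). The limma F test of differences between the times did not call Adam19 (adjusted p = 0.943), so no time of onset is read. The second Adam19 probe set gave an average of -0.66 (adjusted p = 0.00178), but only 9 of its 18 values were above log2 4. The call on the average ended without any of 11 samples (vehicle 2 h pool 3, aldosterone 2 h pool 3, vehicle 4 h pools 1 and 3, aldosterone 4 h pools 1 and 2, vehicle 8 h pools 2 and 3, and all 3 aldosterone 8 h pools), with adjusted p of 0.056 to 0.0848, with no filter (adjusted p = 0.0624) and with a replicate block (adjusted p = 0.0567).

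**Figure D5:**
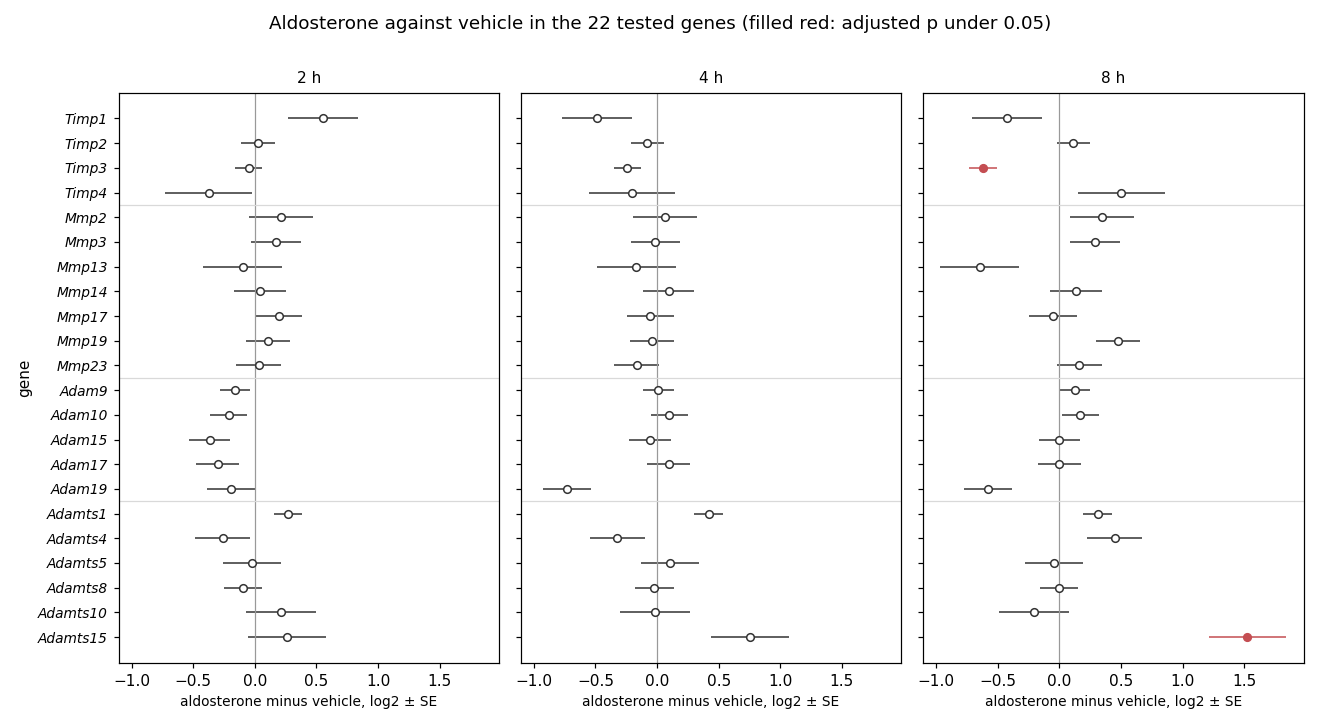
Log2 difference of aldosterone minus vehicle for the 22 tested genes at 2, 4 and 8 h (points: limma estimate; bars: SE; filled red: adjusted p under 0.05). Adamts15 at 8 h (1.53) and Timp3 at 8 h (-0.62) were the differences that passed the test at a single time.

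The other members did not pass the test at any time or on average. Timp1 differed by 0.55 at 2 h, where every aldosterone pool was above every vehicle pool, by -0.48 at 4 h and by -0.43 at 8 h (adjusted p = 0.487, 1 and 1). Timp4 differed by -0.37, -0.20 and 0.50, Mmp3 by 0.17, -0.01 and 0.29, and Adamts4 by -0.26, -0.32 and 0.45. Mmp13 at 8 h was lower in each aldosterone pool than in any vehicle pool (-0.65, adjusted p = 0.838). The pools also did not overlap for Timp4 at 2 h and for Mmp3, Mmp19 and Adamts4 at 8 h. Separation of pools in groups this small is a description and not a test. Its share over all genes is not given here. The test of whether aldosterone effects differ between the times called 0 members (4 at an unadjusted p under 0.05, which 5.92% of all genes had), where 0.155% of all genes were called. The smallest adjusted p-values of members in this limma F test were those of Timp3 (adjusted p = 0.506) and Timp1 (adjusted p = 0.772). None of the genes in the 4 lists of activators, relatives and substrates was called in any aldosterone comparison.

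Markers of other cell types at 8 h are set beside these results; none of the cardiac muscle or adipocyte markers was called there. The mean level of the cardiac muscle list was 3.23 to 3.69 in the vehicle pools and 3.54 to 5.38 in the aldosterone pools, with 2 of the 5 markers (Nppa and Tnni3) under the limit. Aldosterone 8 h pool 3 was the high one, with Myh6 at 6.72, Tnnt2 at 7.40 and Actc1 at 6.71, where the other 8 h pools had Myh6 at 3.35 to 3.51. Without that pool the 8 h difference was -0.54 for Timp3 (adjusted p = 0.0459) and 1.66 for Adamts15 (adjusted p = 0.0398), both still called. The average was 0.34 for Adamts1 (adjusted p = 0.0313) and 0.89 for Adamts15 (adjusted p = 0.0354), still called, and -0.51 for Adam19 (adjusted p = 0.0724) and -0.28 for Timp3 (adjusted p = 0.0586), no longer called. The adipocyte list (3 of 6 markers measured) had a mean level of 6.06 to 6.42 in the vehicle and 6.61 to 6.84 in the aldosterone pools at 8 h, and its part in these differences was not tested. Of the macrophage markers 1 of 8 was called at 8 h, Mrc1, which was higher with aldosterone (1.27, adjusted p = 0.0335).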

How the data were processed

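RNA from 18 pools of aortas was hybridised to Affymetrix arrays, 1 array each, after biotin labelling. The deposited value table holds log2 values, which the submitters' processing notes tie to GCRMA (background correction by probe sequence, quantile normalization and probe set summary); the sources used here give neither version nor settings. No detection calls were used, and the number of arrays limits the precision. Genes came from the platform annotation: 20380 of 22690 probe sets had 1 gene, and 11236 of them passed the filter (log2 above 4 in at least 3 samples). For 7092 genes, limma 3.58.1 (R 4.3.3) fitted 6 group means with 1 shared spread, eBayes with trend, two-sided tests and Benjamini-Hochberg adjustment over all genes; threshold 0.05; residual df 12. The median SD within groups was 0.233 for members. A fold is 2 to the power of the log2 difference; where a group mean was under log2 4, it is a bound against log2 4. The gene families and lists were chosen with earlier results of these data known; the rule that picks the members reads names only. Named were members called with aldosterone, all Timp genes, the largest culture rises and falls, and a list of well-known members. The labels call the samples biological replicates. Same-numbered vehicle and aldosterone samples deviated together (correlation over 0.1) in only 2 of 9 pairs of samples at the same time (-0.186 to 0.282), so numbers were not used as pairs. Alternatives were the filter, the probe set rule, scaling, array weights, the prior, a replicate block and leaving out each sample.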

Additional observations from a re-analysis of the deposited data

How the results depend on the processing

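No called member result changed sign in up to 28 alternatives per result. For a comparison of 2 groups, many alternatives cannot change the estimate, such as leaving out a pool of another group. They therefore say little about its sign. A second probe set alone was not among the alternatives. That of Adamts4 had aldosterone means of 7.17 at 2 h and 7.33 at 4 h, against the direction of the call. Of the 60 culture calls, 42 were kept in every alternative and 18 were lost in at least 1, and the count of called members ran from 8 to 14 (main value 12) for vehicle 4 h against 2 h, 15 to 19 (18) for vehicle 8 h against 4 h, 10 to 16 (14) for aldosterone-treated 4 h against 2 h and 14 to 17 (16) for 8 h against 4 h. With aldosterone the called members numbered 0 at 2 h, 0 to 1 at 4 h, 1 to 2 at 8 h and 2 to 4 on average when each sample was left out in turn. Array weights gave 1 call at 2 h and 1 at 4 h, Adamts1 in both. With no filter there was 1 call at 8 h and 2 on average, and with the filter at log2 6 there was 1 at 8 h. With the replicate number as a block the average gave 3 calls, Adam19 being lost. Of 132 uncalled results, 11 were called in some alternative. Causes of these losses were not tested. Values at or under log2 4 in a kept probe set entered the fit as they stood. Only printed folds were bounded or left out for them. The log2 differences and adjusted p-values of Mmp13, Mmp19, Timp4, Adamts15, Cx3cl1, Serpinb2 and the second Adam19 probe set rest partly on such values. They are therefore limited at their low end.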

Other observations

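The 8 h values of Adam8, Mmp12 and Mmp10, members under the limit and so not tested, are given here as examples. Adam8, a protease of myeloid cells, read 5.28, 5.13 and 3.17 in the aldosterone pools at 8 h and 3.62, 3.16 and 3.63 in the vehicle pools. Mmp12, the macrophage elastase, read 3.59, 3.71 and 4.52 in vehicle at 8 h and 3.92, 3.95 and 3.73 with aldosterone, and 2.57 to 2.80 in the pools of 2 and 4 h. Mmp10 (stromelysin 2), a close relative of Mmp3, read 3.17, 2.98 and 3.45 in vehicle at 8 h and 2.52, 2.52 and 2.54 with aldosterone. Its highest value in the series was 3.45, under log2 4, so no difference is read from these values. These genes were chosen after their values were seen.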
